A study of Mus musculus with 4 samples.

Results

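The guanylate-binding proteins (GBPs) described here are the 8 genes listed under the symbols Gbp2, Gbp3, Gbp4, Gbp5, Gbp6, Gbp7, Gbp8 and Gbp9, found by symbol among the 32285 genes of each spatial table. All 8 were present, and the rule that picks them uses their symbols alone. The samples were 4 fresh frozen sections of MC38 tumors, 2 per host strain, assayed on 10x Genomics Visium slides, on which each barcoded spot captures RNA from the several cells above it. MC38 was derived from a colon carcinoma of a C57BL/6 mouse, and 500000 of its cells were injected under the skin of female mice aged 8 to 12 weeks. CC075F1 hosts had the genotype C57BL/6J x CC075/UncJ and CC080F1 hosts the genotype C57BL/6J x CC080/TauUncJ. The CC parents are recombinant inbred Collaborative Cross strains, and the study classed CC075F1 as a responder and CC080F1 as a non-responder to anti-PD-1. All 4 mice had the same treatment, a single intraperitoneal dose of 200 µg of isotype control antibody (2A3) given at 75 to 110 mm3 of tumor, with tumors taken 48 hours later. No group treated with anti-PD-1 was analysed here, so the comparison was between hosts given the control antibody.

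GBPs are large GTPases that interferon-γ induces strongly in macrophages, dendritic cells, endothelium and many tumor cells. They assemble on pathogen-containing vacuoles and on bacterial surfaces, break these open, and expose ligands to the AIM2 and caspase-11 inflammasomes. In tumors their transcripts are widely read as a trace of local interferon-γ. In the mouse they lie in a cluster on chromosome 3 and another on chromosome 5.

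On the GRCm38 build, with positions from GENCODE vM21, the chromosome 3 cluster held 4 members, all on the plus strand. These were Gbp5 (ENSMUSG00000105504, chr3:142493978-142522344), Gbp7 (ENSMUSG00000040253, chr3:142530342-142550149), Gbp3 (ENSMUSG00000028268, chr3:142560026-142573209) and Gbp2 (ENSMUSG00000028270, chr3:142620602-142638008). The chromosome 5 cluster held the other 4, all on the minus strand. These were Gbp8 (ENSMUSG00000034438, chr5:105014150-105139540), Gbp9 (ENSMUSG00000029298, chr5:105077630-105139539), Gbp4 (ENSMUSG00000079363, chr5:105115767-105139586) and Gbp6 (ENSMUSG00000104713, chr5:105270702-105293698). The clusters span 144 kb and 280 kb. Gene models of Gbp4, Gbp8 and Gbp9 overlap, but the exon bases that any of them shared with another member numbered 61 at most. Visium reads come from the 3′ end of transcripts, so the last 500 bases of each annotated transcript were searched for stretches of 90 bases that also occur in another gene. Such stretches made up 82.5% of those of Gbp6, matching Gbp10 and Gm43302, 6.08% of those of Gbp4, 0.375% of those of Gbp3 and 0% for the other 5 members. Whether reads from such shared stretches were assigned to a gene or dropped cannot be seen in the counts, so Gbp6 values are uncertain.

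Promoter sequence is shown because the members varied together across spots, as described further on. RefSeq promoters on GRCm38.p6, running from 250 bases before to 50 bases after a start, were matched by symbol for 4 of the 8 members, Gbp2, Gbp3, Gbp5 and Gbp7. A motif was searched on both strands for the interferon-γ activated site (GAS, TTCNNNGAA) and another for the interferon-stimulated response element (ISRE, spelled GAAA, then any 2 bases, then GAAA, which reads TTTC, any 2 bases, TTTC on the other strand). Capitals mark every match. The sequences are written along the plus strand of chromosome 3, and every ISRE match in them has the TTTC spelling. They lie at chr3:142496684-142496983 for Gbp5, chr3:142530086-142530385 for Gbp7, chr3:142559794-142560093 for Gbp3 and chr3:142620413-142620712 for Gbp2.
Gbp5: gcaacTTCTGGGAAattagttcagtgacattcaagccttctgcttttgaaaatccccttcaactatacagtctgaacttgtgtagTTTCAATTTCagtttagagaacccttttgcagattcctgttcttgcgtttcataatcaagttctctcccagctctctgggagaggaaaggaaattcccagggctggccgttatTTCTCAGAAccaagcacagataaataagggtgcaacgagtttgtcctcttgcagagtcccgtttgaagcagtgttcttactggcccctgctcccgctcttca
Gbp7: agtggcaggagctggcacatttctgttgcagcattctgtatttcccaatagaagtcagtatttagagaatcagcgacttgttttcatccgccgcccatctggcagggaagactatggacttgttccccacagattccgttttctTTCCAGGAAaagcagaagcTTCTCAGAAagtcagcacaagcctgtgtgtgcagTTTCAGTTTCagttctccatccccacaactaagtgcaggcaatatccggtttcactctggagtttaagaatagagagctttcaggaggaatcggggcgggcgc
Gbp3: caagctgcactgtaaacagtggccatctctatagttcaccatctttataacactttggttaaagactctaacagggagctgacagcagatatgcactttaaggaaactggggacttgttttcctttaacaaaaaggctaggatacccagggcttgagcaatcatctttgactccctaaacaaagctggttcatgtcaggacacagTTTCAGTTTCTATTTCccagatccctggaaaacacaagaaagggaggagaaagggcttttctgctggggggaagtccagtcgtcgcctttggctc
Gbp2: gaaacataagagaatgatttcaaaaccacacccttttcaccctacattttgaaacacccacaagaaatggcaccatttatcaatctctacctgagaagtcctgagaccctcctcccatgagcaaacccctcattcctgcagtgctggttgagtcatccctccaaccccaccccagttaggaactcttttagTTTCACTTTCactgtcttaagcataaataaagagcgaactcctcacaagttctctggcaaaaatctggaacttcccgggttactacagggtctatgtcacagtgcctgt
The Gbp5 promoter held 2 GAS matches and 1 ISRE match, and the Gbp7 promoter also held 2 and 1. Gbp3 had 2 overlapping ISRE matches and Gbp2 had 1 ISRE match, neither with a GAS match. A further RefSeq start of Gbp3, at chr3:142560106-142560405, had no match to either motif in its window. Among all 32851 promoters of this length, 8.30% held a GAS match, 3.44% an ISRE match and 0.454% both. A match is only a run of letters and was not tested as a binding site.

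Section totals ran from 82594649 to 146460975 UMIs (unique molecular identifiers, each marking 1 captured molecule) over 2710 to 3276 spots under tissue, with median depths of 31139 to 41740 UMIs per spot. CC075F1 replicate 2 stood apart. It was the deepest, 33.8% of its UMIs were ribosomal protein transcripts against 23.2% to 27.7% in the other sections, and its TMM effective library size was 0.745 of its total against 1.07 to 1.16. The comparison between strains is therefore given both on CPM (UMIs scaled by the section total) and on TMM-scaled CPM. Levels of single members are listed in the text mostly as CPM. It also carried skeletal muscle at its border, with 955.7 CPM of 5 muscle markers in edge spots against 14.2 CPM in the interior. In no spot of any section did skin, muscle and fat markers pass 5% of UMIs. The 5 epithelial markers tested for the carcinoma cells (Krt8, Krt18, Krt19, Cdh1 and Epcam) summed to only 0.860 to 2.64 CPM, so they do not locate tumor cells in these sections, whereas 7 macrophage markers summed to 2042 to 3357 CPM. Of the 3994 spot barcodes found, 1666 occurred in all 4 sections, since each slide area carries the same barcode grid. The labels and methods speak of sections of 4 tissue blocks on a Visium slide but do not say which sections shared it, and they give no library batch, so a library batch and the strain cannot be told apart.

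All 8 members were detected in every section, and Gbp2 dominated. Since each molecule is counted at its 3′ end, UMIs were not divided by transcript length. Gbp2, a member that supports AIM2 activation during cytosolic bacterial infection, was at 291 and 212 CPM in CC075F1 replicates 1 and 2 and at 139 and 242 CPM in CC080F1 replicates 1 and 2. It made up 47.2% to 54.6% of all member UMIs in a section and was seen in 95.6% to 98.2% of spots. The ranges of the 2 strains overlapped on this scale, with the lowest level in CC080F1 replicate 1.

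Gbp7 and Gbp3 followed. Gbp7, linked to oxidative defence in macrophages, was at 96.1 and 50.5 CPM in CC075F1 and at 44.5 and 59.2 CPM in CC080F1. Gbp3 was at 85.7 and 62.6 CPM in CC075F1 and at 39.8 and 58.2 CPM in CC080F1. Gbp7 exceeded Gbp3 in 3 sections and fell below it in CC075F1 replicate 2, so their order was not fixed. Both CC075F1 sections were above both CC080F1 sections for Gbp3, although CC075F1 replicate 2 and CC080F1 replicate 2 lay close together.

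Gbp5, which promotes NLRP3 inflammasome assembly, was the lowest member in every section. It had 4.38 and 2.14 CPM in CC075F1, against 2.48 and 2.75 CPM in CC080F1, or 232 to 362 UMIs per section. It was seen in 7.82% to 12.1% of spots. Its promoter held as many GAS and ISRE matches as that of Gbp7, which was far higher in every section.

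Among the chromosome 5 members, Gbp4 was the highest, at 67.3 and 35.3 CPM in CC075F1 and at 24.2 and 36.6 CPM in CC080F1. Gbp6 was at 25.2 and 9.56 CPM in CC075F1 and at 9.13 and 19.6 CPM in CC080F1. Gbp9 was at 25.3 and 12.6 CPM in CC075F1 and at 20.0 and 20.6 CPM in CC080F1. The strains overlapped for all 3 on section totals, and CC075F1 replicate 1 was the highest section for each of them. On the TMM scale Gbp4 was at 62.3 and 47.5 in CC075F1 and at 20.8 and 34.3 in CC080F1, with no overlap. Gbp6 and Gbp9 overlapped on that scale too.

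Gbp8 had the largest fold between strains. It was at 21.0 and 8.15 CPM in CC075F1 and at 2.97 and 4.78 CPM in CC080F1, from 1734, 1194, 278 and 539 UMIs. The CC075F1 sections were both above the CC080F1 sections, and they also lay far from each other. Gbp8 was seen in 42.8% of spots of CC075F1 replicate 1 (exact Clopper-Pearson 95% interval 40.9% to 44.7%) and in 27.7% of replicate 2 (26.2% to 29.3%). In CC080F1 it was seen in 9.19% (8.14% to 10.3%) and 14.7% (13.5% to 16.0%). These intervals cover counting error only. With every spot thinned to 10000 UMIs, the shares were 18.9% and 9.48% in CC075F1, against 3.26% and 5.05% in CC080F1, after 53 to 205 shallower spots per section were left out. The exact permutation p over sections was 0.333, the smallest that 2 against 2 sections can give.

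**Figure D1:**
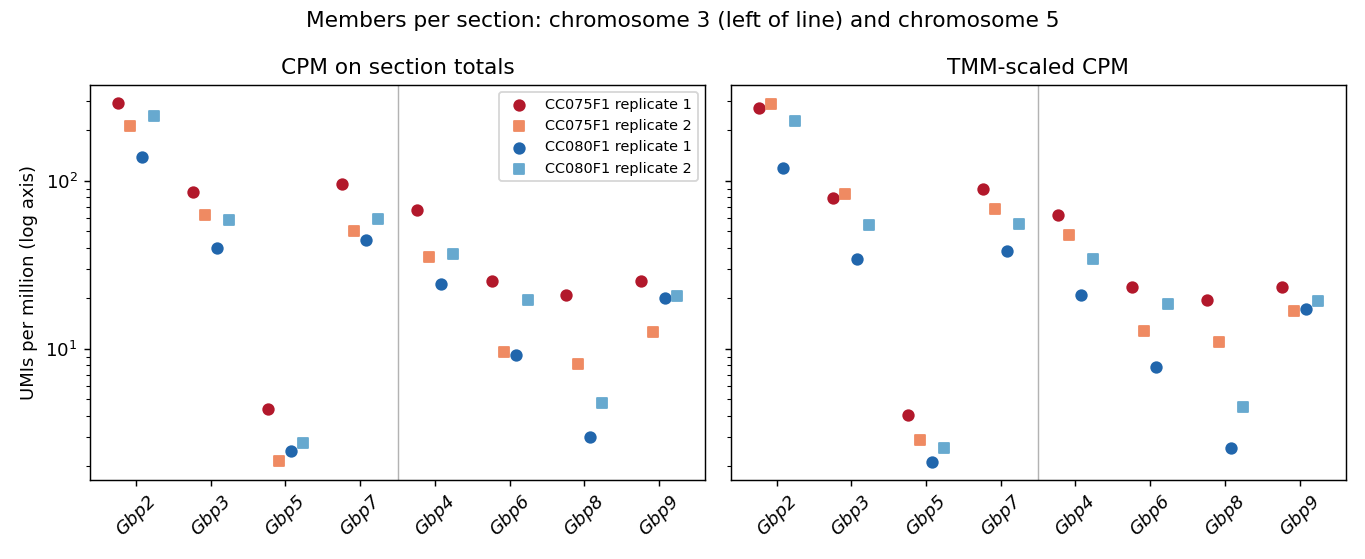
Level of each member in each section on a log axis, as CPM on section totals (left) and TMM-scaled CPM (right); points are sections, and the line divides the chromosome 3 from the chromosome 5 members. Gbp2 is highest and Gbp5 lowest in all 4 sections, and Gbp8 lies at 21.0 and 8.15 CPM in CC075F1 against 2.97 and 4.78 CPM in CC080F1.

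The makeup of the family was also compared, as each member's share of all member UMIs, with no test. Gbp8 was 3.41% and 2.07% in CC075F1, against 1.05% and 1.08% in CC080F1. Gbp9 ran the other way, at 4.11% and 3.20% in CC075F1, against 7.11% and 4.63% in CC080F1. Gbp4 was 10.9% and 8.99% in CC075F1, against 8.60% and 8.23% in CC080F1. The shares of Gbp2, Gbp3, Gbp5, Gbp6 and Gbp7 overlapped between the strains. With 2 against 2 sections, values without any strain difference fail to overlap with a probability of 0.333. Shares of a common sum are also tied to each other. The shares that did not overlap are therefore a description only, not a strain difference in makeup. None of these shares depends on the scaling of sections. The chromosome 5 cluster as a whole took 22.5% and 16.7% of member UMIs in CC075F1 and 20.0% and 18.4% in CC080F1.

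Summed over the members, the sections held 616 and 393 CPM in CC075F1, against 282 and 444 CPM in CC080F1. On section totals the strain means of 505 ± 158 and 363 ± 115 CPM (SD, n = 2 each) had a ratio of 1.39 and the sections overlapped. On the TMM scale the sections were at 570 and 528 in CC075F1 and at 242 and 416 in CC080F1, a ratio of 1.67 with no overlap. The ratio on section totals ran from 1.08 without CC075F1 replicate 1 to 1.79 without CC080F1 replicate 2. In spots thinned to 10000 UMIs the median number of member UMIs per spot was 6 and 3 in CC075F1, against 3 and 4 in CC080F1, so CC075F1 replicate 1 stood above the other 3 sections.

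The test between strains asked whether the host genotype went with a different level of each member. No member was called by edgeR's quasi-likelihood test at a Benjamini-Hochberg adjusted p under 0.05 over all 15572 genes, of which 0.0899% were called. The log2 fold changes (CC075F1 minus CC080F1, TMM-scaled) were positive for all 8 members, against 47.5% of all genes, with a median of 0.71 against −0.02 over all genes tested. Before adjustment 4 members, Gbp3, Gbp4, Gbp7 and Gbp8, had a positive change at p under 0.05, against 3.19% of all genes. Gbp8 had the largest log2 fold change, 2.11 (SE 0.38, edgeR adjusted p = 0.179). Gbp4 was at 0.99 (SE 0.28, edgeR adjusted p = 0.543), Gbp3 at 0.88 (SE 0.25, edgeR adjusted p = 0.571) and Gbp7 at 0.74 (SE 0.25, edgeR adjusted p = 0.727). Gbp2, Gbp5 and Gbp6 lay between 0.46 and 0.68, and Gbp9 was at 0.14.

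How far the strains separated depended on the scale. On section totals 2 of 8 members, Gbp3 and Gbp8, were higher in both CC075F1 sections than in both CC080F1 sections, against 6.63% of genes. On the TMM scale 6 of 8 were, all but Gbp6 and Gbp9, against 16.2% of genes. Under scaling by library size alone the log2 fold changes of all genes had a median of −0.31 in place of −0.02, and Gbp9 turned to −0.10. Without CC075F1 replicate 1, Gbp6 and Gbp9 were at −0.03 and −0.11. Gbp8 was called without CC080F1 replicate 1, and Gbp4 and Gbp8 without CC080F1 replicate 2, in fits that called 0.848% and 1.3% of all genes. Summed macrophage markers were also higher in both CC075F1 sections, with all 7 listed genes detected and levels of 3357 and 2676 CPM in CC075F1, against 2042 and 2385 CPM in CC080F1. Gene by gene, 5 of 7 were positive between strains, with a median log2 fold change of 0.22 and a lowest of −0.70. Conventional dendritic cell markers (5 of 5 detected) summed to 19.7 and 13.3 CPM against 12.95 and 13.6 CPM, and 3 of 5 were positive, with a median of 1.52. Summed T cell markers (6 of 6 detected) were at 57.3 and 42.4 CPM against 33.5 and 35.9 CPM. Other lists ran the other way. Summed endothelial markers were at 62.9 and 47.5 CPM in CC075F1, against 116.5 and 78.3 CPM in CC080F1. Gene by gene, 0 of 5 were positive, with a median log2 fold change of −0.47. Fibroblast markers summed to 722 and 686 CPM against 817 and 1132 CPM, and 2 of 5 were positive, with a median of −0.31. The part of these cell types in the GBP levels was not tested, and in spots of mixed cells fewer cells of a type cannot be told apart from less RNA per cell. Hosts carry a CC haplotype that may differ at these genes from the C57BL/6J reference used for alignment. The CC ancestry at the clusters was not looked up, and any effect on each member's count was not tested.

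By placement within the section, the 2 strains fell on opposite sides for every member. The edge was taken as spots within 3 hexagonal grid steps of a position without tissue, which gave 568 and 665 spots for CC075F1 and 880 and 648 for CC080F1. In both CC075F1 sections all 8 members were higher at the edge than in the interior, and in both CC080F1 sections all 8 were lower. Over all genes, 10.8% split in this way on zone totals and 4.2% on the TMM scale, and all 8 members did so on either. The opposite split was found for 1.99% and 5.75% of genes. For the summed members the edge over interior ratio was 1.45 ± 0.013 in CC075F1, against 0.828 ± 0.078 in CC080F1 (SD, n = 2 each).

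On a log2 scale, edge over interior on zone totals, Gbp2 was at 0.54 and 0.48 in CC075F1 and at −0.43 and −0.15 in CC080F1. Gbp3 was at 0.46 and 0.48 against −0.32 and −0.23, and Gbp7 at 0.66 and 0.56 against −0.25 and −0.15. Gbp5, with 30 to 71 UMIs at an edge, was at 0.64 and 0.78 against −0.13 and −0.82. The chromosome 3 members thus shared the direction, and the scarce Gbp5 had the widest spread within CC080F1.

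Gbp4 was at 0.56 and 0.73 in CC075F1 and at −0.47 and −0.20 in CC080F1. Gbp6 was at 0.61 and 0.59 against −0.42 and −0.31. Gbp8 was at 0.66 and 0.99 against −0.26 and −0.36, the highest edge ratio of any member being that in CC075F1 replicate 2. Gbp9 had the smallest contrast in CC075F1, at 0.27 and 0.36, against −0.23 and −0.22 in CC080F1.

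**Figure D2:**
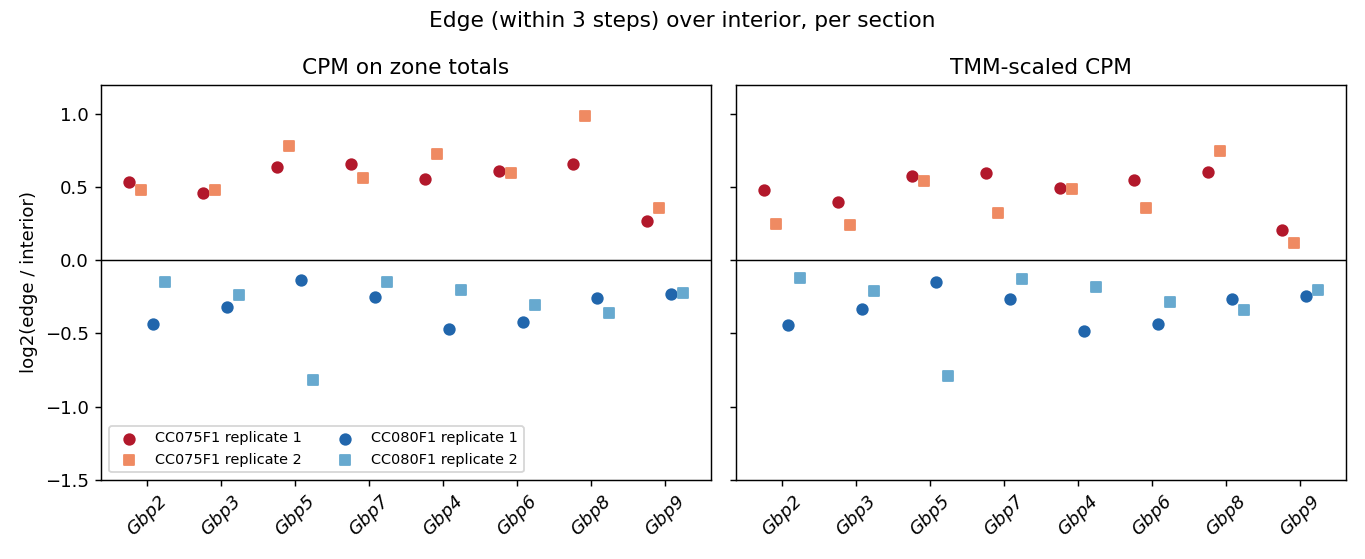
Log2 ratio of edge to interior level of each member in each section, on zone totals (left) and TMM-scaled (right); points are sections and the line marks equal levels. Every CC075F1 point lies above 0 and every CC080F1 point below, with Gbp9 the closest to 0 in CC075F1.

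Fitted over all 4 sections with the section as a block, the members were near 0 between edge and interior. The edgeR fit called 0 of 8 at an adjusted p under 0.05, against 1.1% of 15089 genes, and 0 of 8 at an unadjusted p under 0.05, against 18.3% of genes. The fitted log2 values ran from −0.03 to 0.27.

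The strain difference in the edge contrast was then tested directly, as the interaction of strain and zone. All 8 differences were positive with an unadjusted p under 0.05, against 4.4% of genes. After adjustment over 15089 genes the edgeR fit called 0 of 8, against 0.106% of genes. The nearest were Gbp4, with a log2 difference of 0.82 (SE 0.13, edgeR adjusted p = 0.0724), Gbp8 with 0.98 (SE 0.17, edgeR adjusted p = 0.0922) and Gbp6 with 0.81 (SE 0.14, edgeR adjusted p = 0.0964). Gbp7 was at 0.66 and Gbp3 at 0.59, both with an edgeR adjusted p of 0.129. Gbp2 was at 0.65 (edgeR adjusted p = 0.176), and the widest errors went with the lowest level, since Gbp5 was at 1.00 (SE 0.30, edgeR adjusted p = 0.348). Gbp9 had the smallest difference, 0.39 (SE 0.12, edgeR adjusted p = 0.381). The median of the members was 0.74 against −0.03 over all genes tested. The count of members called was between 0 and 6 as sections were left out, with 6 called without CC080F1 replicate 2, 3 without CC080F1 replicate 1 and 0 without either CC075F1 section. The share of all genes called in these fits moved as well, to 3.24% without CC080F1 replicate 2, 1.14% without CC080F1 replicate 1, and 0.779% and 0.00645% without CC075F1 replicates 1 and 2.

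Within CC075F1 alone, a contrast chosen after the data were seen, the same fit called 4 of 8 members higher at the edge, against 3.74% of genes. These were Gbp8 with a log2 change of 0.67 (SE 0.10, edgeR adjusted p = 0.0114), Gbp4 with 0.49 (edgeR adjusted p = 0.0193), Gbp7 with 0.46 (edgeR adjusted p = 0.0256) and Gbp6 with 0.46 (edgeR adjusted p = 0.0360). Without CC075F1 replicate 1 or 2, 0 were called, and 4.6% and 0.0774% of all genes were, in either direction. Without CC080F1 replicate 1 or 2, 6 were called, and 10.7% and 11.8% of all genes were. Within CC080F1 all 8 changes were negative, while 49.5% of all genes had a positive change, and 0 members were called, against 0.258% of genes in either direction. Of the members, 6 had an unadjusted p under 0.05 with a negative change, against 2.7%.

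The profile by distance showed where in the section the difference lay. In CC075F1 replicate 1 the summed members stood at 844 CPM in the outermost step, 848 at steps 2 to 3 and 792 at steps 4 to 6. They then fell to 685, 576 and, from step 13 inwards, 425 CPM. In CC075F1 replicate 2 the matching values were 484, 555 and 531 CPM, then 426, 354 and 295 CPM. The CC075F1 sections thus shared an outer band about 6 steps deep and a low core.

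The CC080F1 sections were lowest at their border. In CC080F1 replicate 1 the summed members rose from 221 CPM in the outermost step to 240 and 293 CPM, and stayed between 305 and 309 CPM further in. In CC080F1 replicate 2 they rose from 337 CPM to 426 and then to 526 CPM at steps 4 to 6, and declined to 475, 425 and 416 CPM. In CC080F1 replicate 2 only the outermost step thus lay below the innermost bin. With an edge of 5 steps, 2 of its 8 members, Gbp2 and Gbp7, lay above 0 (0.07 and 0.01 on the log2 scale).

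**Figure D3:**
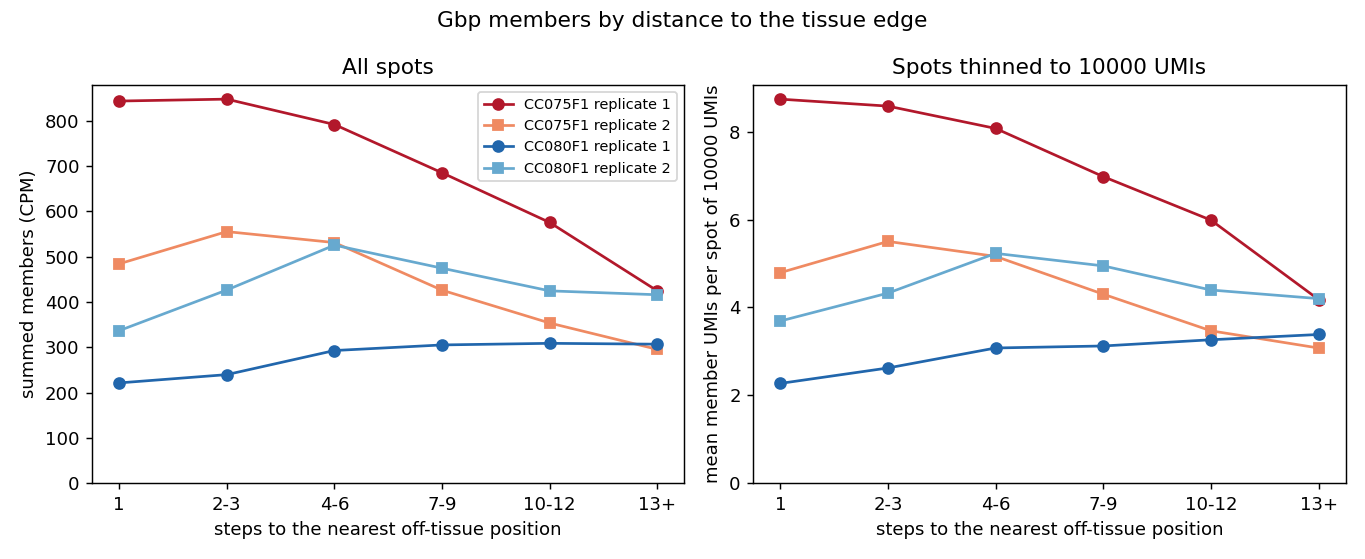
Summed members by distance to the nearest off-tissue position in grid steps, as CPM of all spots in a bin (left) and mean member UMIs per spot thinned to 10000 UMIs (right); each line is a section. Both CC075F1 lines fall inwards from steps 2 to 3, CC080F1 replicate 1 rises inwards, and CC080F1 replicate 2 peaks at steps 4 to 6.

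Depth also changed with distance. The median depth of edge spots was 18032 and 25171 UMIs in CC075F1, against 30120 and 26854 UMIs in CC080F1, against 33592 and 46146 and 34844 and 37003 UMIs in the interior. In spots thinned to 10000 UMIs, member UMIs per spot still fell from 8.74 in the outermost step to 4.18 in the innermost bin of CC075F1 replicate 1 and from 4.79 to 3.08 in replicate 2. In CC080F1 they rose from 2.27 to 3.38 and from 3.69 to 4.20. On thinned spots 7 of 8 members kept the split between strains. The exception was Gbp8, at 0.01 in CC080F1 replicate 1. The split held for 8 of 8 with an edge of 2 steps, with the outer boundary alone and in spots of at least 10000 UMIs. With an edge of 5 steps it held for 6 of 8. The share of all genes that split was counted only for all spots with an edge of 3 steps. How common the split was among genes under these other settings is therefore not known.

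Single members differed in the shape of their profile. In CC075F1 replicate 1 Gbp8 went from 32.9 CPM in the outermost step to 12.8 CPM in the innermost bin and Gbp2 from 393 to 202 CPM. In CC075F1 replicate 2 Gbp8 went from 12.2 CPM, by way of 15.1 CPM at steps 2 to 3, to 4.85 CPM. Gbp9 in CC075F1 replicate 1 was at 24.3 CPM in the outermost step, below the 31.7, 29.4 and 27.8 CPM of the next bins, and at 21.2 CPM in the innermost. In CC080F1 replicate 2, where the sum peaked at steps 4 to 6, Gbp3 and Gbp9 peaked at steps 7 to 9, with 66.4 and 23.6 CPM, and Gbp5 at steps 10 to 12, with 3.29 CPM.

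Other cell type markers also had other levels at the edge. All 6 T cell markers were detected in each section, and their summed level was higher at the edge by 0.77 and 1.15 on the log2 scale in CC075F1 and by 0.17 and 0.93 in CC080F1. The 5 endothelial markers were higher by 1.02 and 1.02 and by 0.18 and 0.41. Macrophage markers, the most abundant list, were at −0.01 and 0.39 in CC075F1 and at −0.04 and −0.05 in CC080F1. Conventional dendritic cell markers were at 0.33 and 0.69 in CC075F1 and at −0.18 and 0.08 for CC080F1. Neutrophil markers were at 1.06 and 1.80 against 0.53 and 1.22, and fibroblast markers at 0.23 and 1.56 against 0.19 and 0.67. In the fitted strain difference of the edge contrast 5 of 5 dendritic cell markers were positive, with a median of 1.13. So were 5 of 5 endothelial (median 0.55), 3 of 4 neutrophil (0.80) and 3 of 5 fibroblast markers (0.50). For T cell markers 4 of 6 were positive (0.24), for macrophage markers 4 of 7 (0.14) and for skeletal muscle 5 of 5 (4.71). In CC075F1 replicate 1 the macrophage list was level between edge and interior, while in CC075F1 replicate 2 it was higher at the edge. The GBPs were higher at the edge in both. The part of any of these cell types in the GBP contrast was not tested. The section outlines differed too, since 25 and 1 spots of the CC075F1 sections lay on the frame of the capture area, against 75 and 58 of the CC080F1 sections, and CC080F1 replicate 1 was cut by a deep bay. The plane of each section within its tumor is not given in the sources used here and cannot be told apart from the strain.

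**Figure D4:**
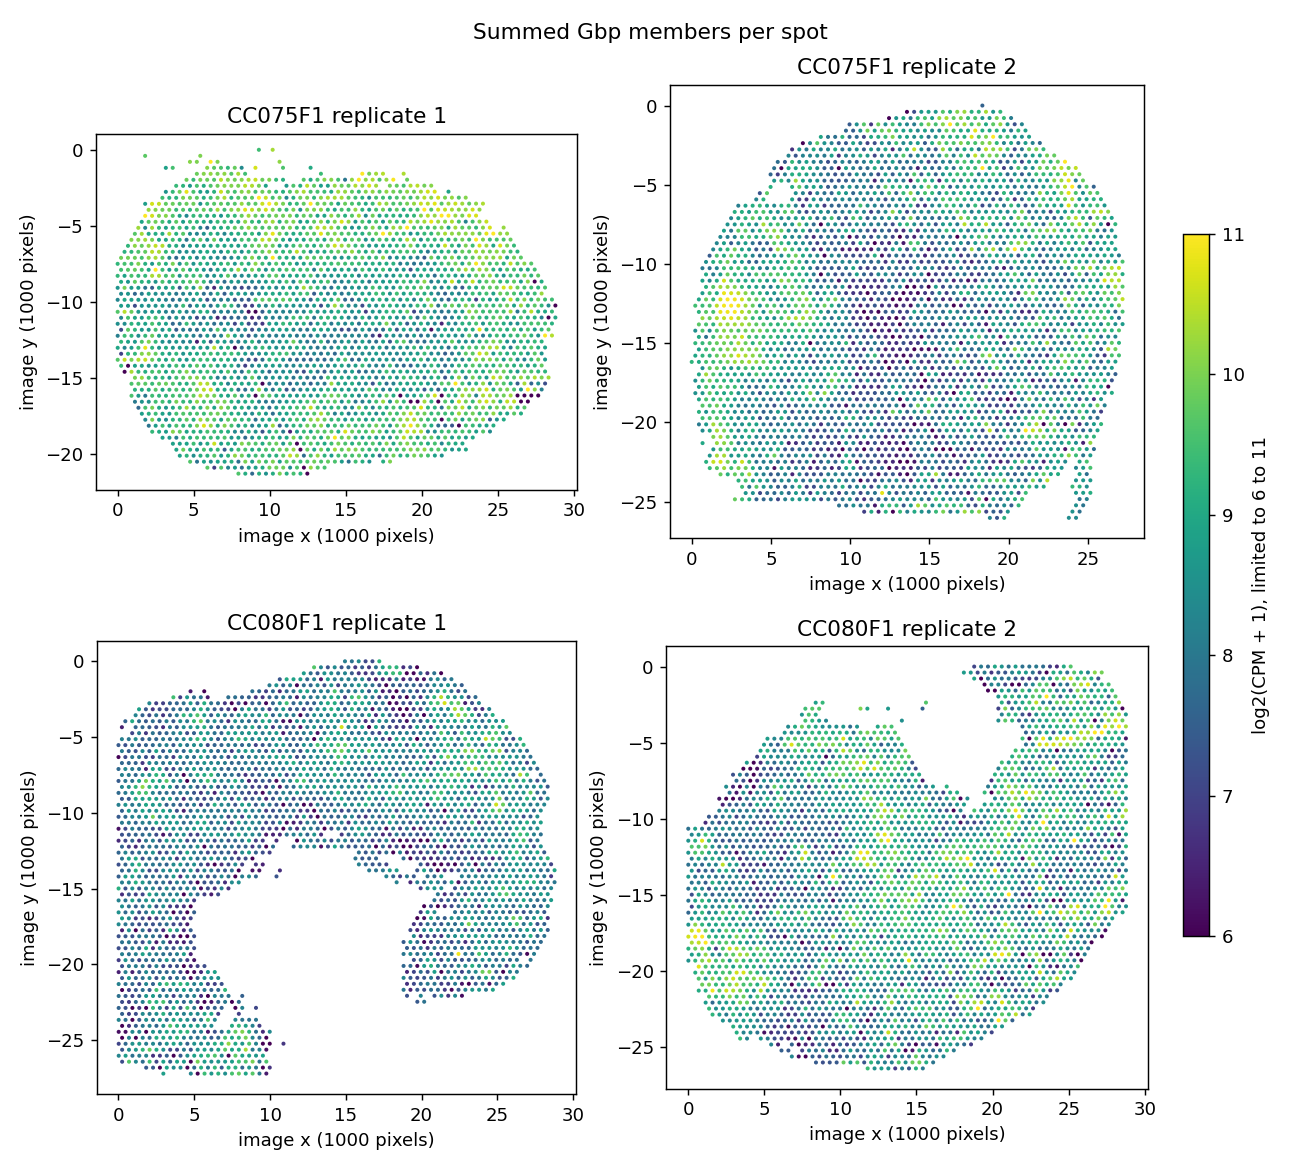
Spots of the 4 sections at their image positions, coloured by the summed members as log2(CPM + 1), limited to 6 to 11. High spots lie around the border of both CC075F1 sections and are scattered as interior patches in CC080F1 replicate 2, while CC080F1 replicate 1, with its bay, is low in most spots.

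Across spots the levels of the members were weakly to moderately related. Spearman correlations between members over the spots of a section were above 0 for 28 of 28 pairs in each section, with means of 0.18 and 0.22 in CC075F1, against 0.12 and 0.20 in CC080F1. The strongest pairs joined abundant members. Gbp2 with Gbp7 had a mean of 0.37 over the 4 sections, Gbp2 with Gbp3 0.36, and Gbp2 with Gbp4, which lies on the other chromosome, also 0.36. The weakest pairs held the scarcest members, with 0.06 for Gbp5 with Gbp8 and for Gbp5 with Gbp9. All these values are descriptions, since spots of a section share its library, depth and neighbours.

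Thinning lowered these values. In spots thinned to 10000 UMIs the means over pairs were 0.083 and 0.098 in CC075F1, against 0.048 and 0.089 in CC080F1, and 27 of 28 pairs remained above 0 in CC080F1 replicate 1 against 28 in the others. Gbp2 against the sum of the other 7 members, the best measured of such relations, had 0.35 and 0.38 in CC075F1, against 0.18 and 0.34 in CC080F1 on thinned spots. Without thinning, this relation had 0.54 and 0.62 in CC075F1, against 0.35 and 0.54 in CC080F1. The same sum was also averaged over the adjacent spots only, which share no capture spot. Against that average, unthinned Gbp2 had 0.55 and 0.56 in CC075F1, against 0.38 and 0.53 in CC080F1. Moran's I of the summed members, a measure of how alike adjacent spots are, was 0.376 ± 0.105 in CC075F1, against 0.316 ± 0.027 in CC080F1 (SD, n = 2 each), which overlapped.

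The genes whose spot pattern was most like that of the summed members were sought among 8407 other genes with a mean of at least 10 CPM, by the mean Spearman correlation over the 4 sections. Cxcl9 led with 0.55. Others among the 10 most alike were AW112010 with 0.49, H2-Ab1 and Igtp with 0.45, Iigp1 and Cd74 with 0.44, Ly6a and Cxcl10 with 0.43 and H2-Aa with 0.42. The median over all genes compared was 0.01. Section by section, Cxcl9 was at 0.59 and 0.73 for CC075F1 and at 0.33 and 0.54 for CC080F1. CC080F1 replicate 1 thus had the lowest value, as it did between members. On thinned spots Cxcl9 also led, with 0.40. For single members, Cxcl9 was the most like gene outside the family for Gbp2, Gbp3, Gbp4, Gbp6, Gbp7 and Gbp8. Cxcl10 was so for Gbp5 (0.15) and AW112010 for Gbp9 (0.14), both weak relations in sparse counts.

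Among summed gene lists on thinned spots, the other interferon-inducible GTPases (9 of 10 in the table) followed the members most, with 0.43 and 0.47 in CC075F1, against 0.26 and 0.45 in CC080F1. Interferon-γ ligand, receptor and signalling genes (10 of 10) had 0.30 and 0.40 against 0.20 and 0.37. Macrophage markers had 0.15 and 0.33 against 0.17 and 0.18, and T cell markers 0.14 and 0.19 against 0.03 and 0.08. Endothelial markers had 0.19 and 0.22 against 0.05 and 0.13. Inflammasome genes (8 of 8) had 0.14 and 0.22 against 0.09 and 0.14. The lists differ in their total UMIs, so their order is a description only.

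**Figure D5:**
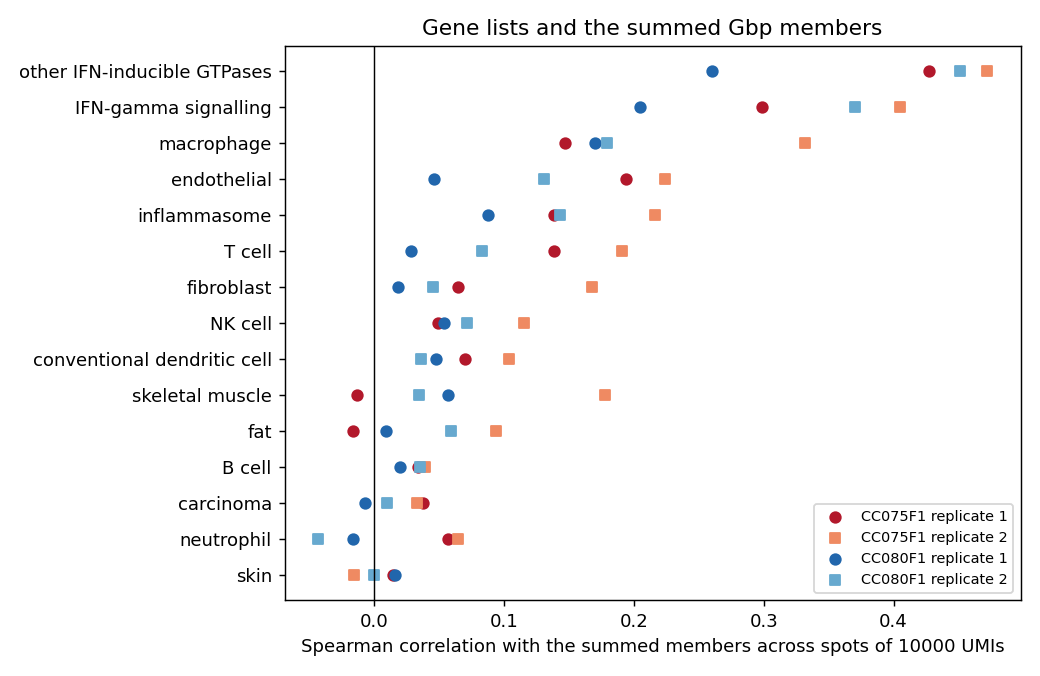
Spearman correlation across spots thinned to 10000 UMIs between the summed members and each summed gene list; points are sections. The other interferon-inducible GTPases and the interferon-γ signalling genes lie furthest right in every section, and CC080F1 replicate 1 has the lowest values for both, 0.26 and 0.20.

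The pathway genes around the GBPs held few calls. Between strains, edgeR called 0 of 10 interferon-γ signalling genes, 0 of 9 other GTPases and 0 of 8 inflammasome genes, with median log2 fold changes of 0.20, 0.81 and 0.16 against −0.02 over all genes tested. Ifng, the ligand, was at 2.57 and 2.29 CPM in CC075F1 and at 0.492 and 0.941 CPM in CC080F1 (log2 fold change 2.06, edgeR adjusted p = 0.348). Its receptor genes Ifngr1 and Ifngr2 were at 0.02 and 0.04 and the kinase genes Jak1 and Jak2 at −0.16 and −0.15 on the log2 scale. The lone chromosome 3 family gene outside the 8, Gbp2b, was at 6.65 and 2.55 CPM in CC075F1 and at 0.203 and 0.488 CPM in CC080F1, a log2 fold change of 3.91 (SE 0.57, edgeR adjusted p = 0.0778). Gbp10, of chromosome 5, had at most 0.453 CPM in any section, and every stretch searched at its 3′ end also occurs in another gene.

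For the strain difference in the edge contrast, edgeR called 1 of 9 other GTPases, Iigp1, with a log2 difference of 0.91 (SE 0.11, edgeR adjusted p = 0.0217). The median of that list was 0.66, near the 0.74 of the members, while the interferon-γ signalling genes had a median of 0.25 and 0 of 10 called. Within the latter list Ifng was at 0.83 (SE 0.38, edgeR adjusted p = 0.60) and Irf1, an interferon-induced transcription factor, was at 0.45 (edgeR adjusted p = 0.351), whereas the receptor and kinase genes lay between −0.12 and 0.11. Inflammasome genes had a median of 0.12 and 0 of 8 called, with Casp4, which encodes caspase-11, at 0.11 and Aim2 at −0.24. Section by section, these summed lists split between the strains as the members did. On the log2 scale, edge over interior, the other GTPases were at 0.65 and 0.65 in CC075F1, against −0.23 and −0.17 in CC080F1. Interferon-γ signalling genes were at 0.28 and 0.43 against −0.12 and −0.03, and inflammasome genes at 0.05 and 0.39 against −0.08 and −0.12.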

How the data were processed

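RNA of 4 MC38 tumor sections was captured on Visium slides. The authors aligned reads to the GRCm38 (mm10) reference and counted UMIs per gene and spot with Space Ranger 1.3.1, and the deposited values are raw counts for spots under tissue, with replicates not pooled. The authors' later normalization, in Seurat 5.0.1 per the labels, was not used here.

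Sections, not spots, were the replicates. UMIs were summed per section, or per section and zone, filtered with filterByExpr and scaled with TMM factors. The tests were edgeR's quasi-likelihood tests (edgeR 4.0.16, under R 4.3.3). P-values were adjusted by Benjamini-Hochberg over all genes tested, at a threshold of 0.05. Standard errors were taken as the log2 fold change divided by the root of F. Between strains the model held the strain alone. Edge and interior were compared with the section as a block, and the strain difference as an interaction. The script was tested on simulated data. Thinning drew 10000 UMIs per spot with a fixed seed. Correlations across spots used log2(CPM + 1), that is CPM with 1 added, and carry no p-value. Other scalings, filters, tools (DESeq2 1.42.0, limma 3.58.1), edge widths and left-out sections were tried as alternatives. With 2 sections per strain, exact permutation tests (two-sided) cannot give a p below 0.333.

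Section totals of 82594649 to 146460975 UMIs set the counting precision, with 3 UMIs as the upper limit for a gene at 0, or 0.0205 to 0.0363 CPM. Replicates are numbered as biological replicates in the labels. The members and gene lists were chosen with earlier results of these data known. All members were named, and other genes by list or by rank of spot correlation, of which 1 is not reported here. RefSeq promoters, but no protein sequences, were used.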

Additional observations from a re-analysis of the deposited data

Results flagged for a closer look

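The edge contrast of each of the 8 members is singled out because it was above 0 in both CC075F1 sections and below 0 in both CC080F1 sections. This split was not particular to the GBPs. The summed lists of other interferon-inducible GTPases, interferon-γ signalling genes and inflammasome genes split in the same way. The fitted differences in the log2 edge contrast (CC075F1 minus CC080F1) were 0.65 for Gbp2, 0.59 for Gbp3, 1.00 for Gbp5 and 0.66 for Gbp7 on chromosome 3. On chromosome 5 they were 0.82 for Gbp4, 0.81 for Gbp6, 0.98 for Gbp8 and 0.39 for Gbp9. Tested directly in edgeR, none of the 8 passed an adjusted p of 0.05 (0.0724 for Gbp4 to 0.381 for Gbp9), while 8 of 8 had an unadjusted p under 0.05 and 6 of 8 were called when no filter on low counts was used, a fit that called 2.36% of all genes against 0.106% with the filter. The members are neighbours in 2 clusters and were related across spots, so these are not 8 independent observations. Depth and T cell, endothelial, neutrophil, fibroblast and conventional dendritic cell markers also differed in level between edge and interior. The outline of the tissue differed between sections. The part of all these in the contrast was not tested.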

How the results depend on the processing

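Between strains, where 0 members were called, 3 were called with no filter on low counts (Gbp3, Gbp4 and Gbp8; 2.13% of all genes called), 1 by the DESeq2 Wald test (Gbp8; 1.25%), and 0 to 2 with a section left out (0.0688% to 1.3%), against 0.0899% in the reported fit. The replicate numbers give only 2 pairs and nothing in the labels says that they mark a shared batch. Deviations of replicate 1 from the strain mean had a Pearson correlation of 0.44 between strains over 8413 genes. With the replicate number as a block, 3 members were called (Gbp3, Gbp4 and Gbp8) and 1.84% of all genes. Of 112 alternative member values between strains, 4 changed sign. Gbp6 ran from −0.0312 to 1.22 and Gbp9 from −0.11 to 0.37 as sections were left out, and Gbp9 was −0.10 under library size alone.

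For the strain difference in the edge contrast, where 0 were called, 1 was called with an edge of 2 steps (Gbp6), 1 in spots of at least 10000 UMIs (Gbp4), 1 on thinned spots (Gbp4) and 3 under library size alone (Gbp3, Gbp4 and Gbp7), where 0.165%, 0.146%, 0.202% and 0.139% of all genes were called. With no filter 6 were called (2.36% of all genes), and with a section left out 0 to 6 (0.00645% to 3.24%), against 0.106% in the reported fit. None of 88 alternative values changed sign. Within CC075F1, 0 to 6 were called with a section left out (0.0774% to 11.8% of all genes), against 4 (4.71%).

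Between edge and interior over all 4 sections, 0 were called under every alternative run, and 20 of 88 values near 0 changed sign. With an edge of 2 steps Gbp2, Gbp3, Gbp5 and Gbp6 were at −0.0416, −0.0468, −0.13 and −0.0330. On thinned spots Gbp3 was at −0.0229. Gbp9 was at 0.0428 with an edge of 5 steps and at 0.0378 under library size alone. With a section left out the ranges were −0.10 to 0.20 for Gbp2, −0.10 to 0.15 for Gbp3, −0.11 to 0.33 for Gbp5, −0.0194 to 0.27 for Gbp7, −0.0470 to 0.28 for Gbp4, −0.12 to 0.21 for Gbp6 and −0.11 to 0.0424 for Gbp9. The mean correlation between members was 0.177, and 0.0797 on thinned spots. Where a left-out section leaves a strain with 1 section, that section is assumed to vary like those of the other strain. The cause of these changes was not tested. Depth limits Gbp5 most, with 232 to 362 UMIs per section.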

Other observations

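A comparison of the strains in edge spots alone was chosen after the data were seen. The log2 fold changes (CC075F1 minus CC080F1) were 2.94 for Gbp8 (SE 0.36), 1.65 for Gbp4 (SE 0.33) and 1.38 for Gbp3 (SE 0.27). Their edgeR adjusted p were 0.0816, 0.273 and 0.273. In this fit 0 of 8 members were called, against 0.015% of 13366 genes. Skin, muscle and fat markers passed 1% of UMIs in 26 spots of CC075F1 replicate 2. Without these spots Gbp8 was at 2.11 over whole sections and 0 of 8 members were called, against 0.116% of genes.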
